A study of Mus musculus with 21 samples.

Results

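Transcripts of 10 genes that are characteristic of fat cells were measured in the calf muscle of mice that had trained, had trained and stopped, or had stayed inactive. The 10 genes were Adipoq, Lep, Cfd, Retn, Plin1, Cidec, Fabp4, Car3, Pparg and Cebpa, taken by symbol from the 40853 genes of the count table, and all 10 were present and passed the filter on low counts, as did 16129 genes in all. All mice were female C57BL/6NJ mice, 10 weeks old at the start, and each of the 3 groups held 7 mice with 1 RNA library per mouse. The Active group ran on a treadmill for 6 weeks, on 5 days a week. A full session of 40 min was a slower warm-up and then running at about 70% of the maximal speed of each mouse. The time at that speed was raised stepwise in the first weeks, so early sessions were shorter. The Activity Reduction group trained in this way for 4 weeks and was then inactive for 2 weeks, and the Inactive group did not train in the 6 weeks. Mice of every group, the Inactive group included, ran a last maximal test, and tissue was taken 48 to 72 h later after a fast. The whole medial belly of the gastrocnemius was homogenized, so the libraries hold RNA of the muscle fibres and of every other cell type in the belly or attached to it. Levels are given as normalized counts, which are raw counts divided by a size factor for each library. In a bulk library, fewer fat cells and less of a transcript per fat cell cannot be told apart.

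Fat cells lie in skeletal muscle between the fibre bundles, along vessels and nerves, and on the surface of the muscle under its sheath. They store triglyceride in a lipid droplet coated by perilipin and secrete adipokines, hormones that act on muscle, liver and brain. The fat cell programme is driven by the nuclear receptor encoded by Pparg and the factor encoded by Cebpa, which maintain one another's expression and that of many fat cell genes. Not all 10 genes are restricted to fat cells: muscle fibres also express Car3, capillary endothelium also expresses Fabp4, and hepatocytes and some myeloid cells also express Cebpa.

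The counts on genes summed to between 38482455 and 59785132 per library. The labelled tissue was checked against its markers, and 10 genes of fast muscle fibres summed to between 8420340 and 10539500 normalized counts, against between 34256 and 134016 for 8 genes of slow fibres. Transcripts of 24 liver genes divided the libraries, at the widest gap in their sum, into 8 with 859.7 to 2544 CPM (counts relative to the library total) and 13 with 192 to 393 CPM. Those 8 were Active 1 to 5, Activity Reduction 1 and 2 and Inactive 1, where the number is the replicate. They were also the 8 libraries with the lowest mouse numbers in the labels, and all of the other 13 had higher ones. The other 13 were 6 Inactive, 2 Active and 5 Activity Reduction libraries. Comparisons with the Active group within these 13 thus rest on 2 libraries, Active 6 and Active 7. The division therefore cannot be told apart from the order of mouse numbers, along which the groups were unevenly spread. The part of that order in the values was not tested. The median log2 fold change of the 24 liver genes was 1.20 for Active against Inactive, 0.20 for Activity Reduction against Inactive and -0.92 for Activity Reduction against Active, and 0 of 24 passed the thresholds in each comparison. Over all genes tested, 0%, 0.0124% and 0% passed them in the same order.

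Levels can be set side by side between genes only per length of transcript. Per kb of the annotated main transcript, the mean normalized count over the 21 libraries was 86817 for Car3, 3233 for Fabp4 and 1164 for Cfd. The other genes were far below these, at 193 per kb for Adipoq, 141 for Cebpa, 80.3 for Retn, 78.9 for Cidec, 74.0 for Plin1, 40.3 for Pparg and 31.1 for Lep. Car3, which encodes a carbonic anhydrase that is abundant in muscle fibres as well as in fat cells, thus stood above every other member, and in every library. The lowest library of Car3 held 68519 per kb and the highest library of Fabp4 held 3682 per kb. Retn, Cidec and Plin1 lay close together, and their ranges over libraries overlapped widely, from 10.8 to 204 per kb for Retn, 28.1 to 196 per kb for Cidec and 9.27 to 225 per kb for Plin1.

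**Figure D1:**
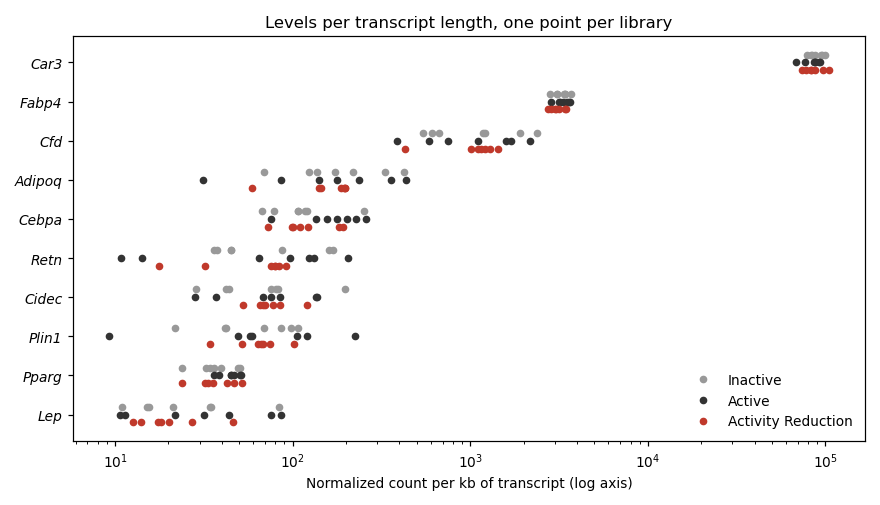
Normalized count per kb of transcript (x axis, log scale) for each of the 10 genes (y axis), with 1 point per library and the 3 groups in different shades and offset vertically. Car3 and Fabp4 have narrow spreads far to the right, while Adipoq, Retn, Plin1 and Lep spread over wide ranges within each group.

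On GRCm39, the 10 genes lie on 6 chromosomes and all encode proteins. Adipoq lies on chromosome 16 from 22964106 to 22976810 on the plus strand, Lep on chromosome 6 from 29060216 to 29073877 on the plus strand, Cfd on chromosome 10 from 79726668 to 79728496 on the plus strand and Retn on chromosome 8 from 3705324 to 3710689 on the plus strand. Plin1 lies on chromosome 7 from 79369966 to 79382718 on the minus strand, and Cidec on chromosome 6 from 113400691 to 113412721 on the minus strand. Fabp4 and Car3 lie on chromosome 3, from 10268785 to 10273737 on the minus strand and from 14928489 to 14937595 on the plus strand. Pparg lies on chromosome 6 from 115337675 to 115468268 and Cebpa, a gene of 1 exon, on chromosome 7 from 34818718 to 34821353, both on the plus strand. Exons of noncoding genes on the opposite strand overlap 24.0% of the exon length of Fabp4, 9.71% of Adipoq, 9.13% of Cidec and 5.72% of Car3, 3.36% of Retn, 1.94% of Cebpa and 1.81% of Pparg. Whether reads were counted by strand is not given in the sources used here, so these counts may hold reads of the opposite strand. Of these partners only Gm52871, opposite Cidec, is in the count table.

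The bases before the transcription start are shown for the hormone gene with the strongest match to a C/EBP site and for the droplet coat gene with 2 matches. Those of the gene used below as the reference of fat cell transcripts are shown too. Whether these sequences bear on the levels in the libraries was not tested. RefSeq promoter windows of 300 bases, 250 before and 50 after the start, were found for 8 of the 10 genes (assembly GRCm38.p6, matched by sequence to GRCm39), and Fabp4 and Car3 were not among them. The windows were searched on both strands for the direct repeat bound by PPARG with its partner RXR (AGGTCA, any base, AGGTCA), for AGGTCA alone, for TTGCNNAA and its palindrome TTGCGCAA, which are forms of the site bound by C/EBP factors, and for TATAAA. The 250 bases before the start are printed 5′ to 3′ on the strand of the gene, with matches in capitals.
Lep: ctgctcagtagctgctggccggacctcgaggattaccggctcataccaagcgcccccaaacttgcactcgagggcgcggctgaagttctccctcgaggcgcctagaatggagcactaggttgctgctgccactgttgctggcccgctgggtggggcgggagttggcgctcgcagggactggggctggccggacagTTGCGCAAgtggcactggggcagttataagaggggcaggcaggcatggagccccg
Plin1: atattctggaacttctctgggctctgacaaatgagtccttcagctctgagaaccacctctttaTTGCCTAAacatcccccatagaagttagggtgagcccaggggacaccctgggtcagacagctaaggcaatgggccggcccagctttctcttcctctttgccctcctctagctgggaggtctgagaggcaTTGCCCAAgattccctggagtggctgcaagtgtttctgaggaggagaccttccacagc
Adipoq: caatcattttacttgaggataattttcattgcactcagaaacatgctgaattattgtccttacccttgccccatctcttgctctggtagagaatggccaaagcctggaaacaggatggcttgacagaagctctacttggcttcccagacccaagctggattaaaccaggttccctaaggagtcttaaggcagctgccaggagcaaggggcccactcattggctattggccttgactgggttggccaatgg
They lie at chr6:29059970-29060219 (plus strand), chr7:79382525-79382774 (minus strand) and chr16:22965036-22965285 (plus strand). Lep holds the palindrome TTGCGCAA starting 55 bases before the start, a sequence found in 0.183% of the 32851 promoter windows in the table. Plin1 holds TTGCNNAA at 187 and at 58 bases before the start, and the window of Adipoq holds no match to any of the motifs. TTGCNNAA also occurs in 1 window of Cidec and in 1 window of Pparg, beside 10.8% of all windows, and TATAAA in windows of Cebpa and Pparg, beside 13.6% of all windows. AGGTCA occurs in 2 windows of Pparg, beside 16.3% of all windows, and the direct repeat in 0 of the 11 windows of these 8 genes, beside 0.0396% of all windows. A match shows only that the letters are present.

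Among the secreted products, Adipoq encodes adiponectin, a hormone that raises fatty acid oxidation in muscle and is made almost solely by fat cells. Its normalized counts had a lowest, median and highest value of 91.8, 228 and 560.4 in the Inactive group, 41.2, 234 and 574 in the Active group, and 77.9, 248 and 262 in the Activity Reduction group. The groups overlapped, and the range of the Activity Reduction group lay inside that of the Active group. The means were 279 ± 166, 277 ± 192 and 212 ± 67.5 (SD, n = 7 each, in that order). The log2 fold change was -0.0047 (SE 0.43) in the Active against the Inactive group, -0.39 (SE 0.43) in the Activity Reduction against the Inactive group, and -0.39 (SE 0.43) in the Activity Reduction against the Active group. Both values of -0.39 rested in part on single libraries. Without Active 3 the value against Active was -0.10, without Active 7 -0.21 and without Activity Reduction 5 -0.24. The value against Inactive was -0.13 without Inactive 7, -0.25 without Activity Reduction 5 and -0.26 without Inactive 6. Differences within groups were thus larger than those between group means, and the 95% interval of the fold for Active against Inactive ran from 0.539 to 1.84.

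Lep encodes leptin, the hormone that signals the size of fat stores to the brain. Its lowest, median and highest normalized counts were 35.6, 69.6 and 274 in the Inactive group, 34.7, 103 and 282 in the Active group, and 41.4, 59.2 and 151 in the Activity Reduction group. Inactive 7, Active 3 and Active 7 were the libraries over 200, and no Activity Reduction library reached that level. The means were 100.5 ± 82.3, 131 ± 98.9 and 72.5 ± 37.8 (SD, n = 7 each). Lep had the largest fold change of the 10 genes, a log2 fold change of -0.86 (SE 0.48) in the Activity Reduction against the Active group, which is a fold of 0.552 with a 95% interval from 0.277 to 1.10. It did not pass the threshold (adjusted p = 0.451, edgeR's quasi-likelihood test, Benjamini-Hochberg adjusted, and p = 0.188 in a two-sided exact permutation test of the normalized counts), and the groups overlapped. Leaving out 1 library at a time, this value ran from -1.15 without Activity Reduction 7 to -0.55 without Active 3. With the division by liver transcripts as a covariate it was -1.07, and within the 13 libraries with fewer of them, 2 of them Active, -0.80.

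Cfd encodes adipsin, which is complement factor D and a protease of the alternative complement pathway. Its lowest, median and highest normalized counts were 509, 1117 and 2234 in the Inactive group, 363, 1047 and 2047 in the Active group, and 403, 1083 and 1345 in the Activity Reduction group. Group medians of Cfd lay close together, while libraries of one group differed by up to 5.65 times. Retn encodes resistin, a small cysteine-rich hormone that fat cells secrete in rodents. Its lowest, median and highest normalized counts were 41.2, 51.7 and 193 in the Inactive group, 12.4, 110.3 and 234 in the Active group, and 20.2, 90.8 and 105 in the Activity Reduction group. The lowest and the highest of the 21 libraries for Retn were both Active libraries, 18.9 times apart. The log2 fold changes of Cfd were -0.035, -0.15 and -0.12, and those of Retn 0.16, -0.33 and -0.49, for Active against Inactive, Activity Reduction against Inactive, and Activity Reduction against Active. Among the 13 libraries that held fewer liver transcripts, the values of Retn were -0.32, -0.55 and -0.23, and those of Cfd -0.30, -0.18 and 0.12, so the sign turned for Retn in the first comparison and for Cfd in the last. Both of these comparisons rest on 2 Active libraries, Active 6 and Active 7, which held 12.4 and 150 normalized counts of Retn.

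Plin1 and Cidec encode proteins of the fat cell's lipid droplet. Perilipin 1 coats the droplet and gates the access of lipases to it, and CIDEC passes lipid between droplets so that they merge into large ones. For Plin1 the lowest, median and highest normalized counts were 65.5, 207 and 319.9 in the Inactive group, 27.8, 178 and 675 in the Active group, and 103, 199 and 307.4 in the Activity Reduction group. Active 6 held the lowest and Active 3 the highest level of all libraries, 24.3 times apart, the widest range of the 10 genes. For Cidec they were 81.5, 215 and 562 in the Inactive group, 80.3, 218 and 395 in the Active group, and 150.2, 201 and 345 in the Activity Reduction group. The Activity Reduction group was the narrowest for both genes, and it lay within the range of the Active group for both. The largest of the 6 log2 fold changes of Plin1 and Cidec was -0.44 (SE 0.43), for Plin1 in the Activity Reduction against the Active group. Without Active 3, the library with the highest Plin1, this value was -0.021, and within the 13 libraries with fewer liver transcripts it was 0.040. Those 13 hold 2 Active libraries, Active 6 with 27.8 and Active 7 with 362 normalized counts of Plin1.

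Fabp4 and Car3, a carrier of fatty acids and a carbonic anhydrase, varied least. The lowest, median and highest normalized counts of Fabp4 were 3832, 4586 and 5007 in the Inactive group, 3866, 4530.5 and 4936 in the Active group, and 3755, 4114 and 4703.5 in the Activity Reduction group. Those of Car3 were 141955, 156929 and 179284, then 123334, 157511 and 168452, then 132386, 149362 and 189158, in the same order of groups. The highest library was 1.33 times the lowest for Fabp4 and 1.53 times the lowest for Car3. Intervals of the group differences were correspondingly narrow, and the 95% interval of the fold for Fabp4 ran from 0.936 to 1.12 in the Active against the Inactive group and from 0.848 to 1.02 in the Activity Reduction against the Active group. For Car3 the same intervals ran from 0.856 to 1.07 and from 0.916 to 1.15.

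Of the transcription factors, Pparg had lowest, median and highest normalized counts of 65.5, 98.3 and 138 in the Inactive group, 98.9, 124 and 139.9 in the Active group, and 65.0, 97.6 and 143 in the Activity Reduction group. The Active libraries of Pparg lay in the upper part of the range of the other groups, and the groups overlapped. Cebpa had 176, 283 and 667 in the Inactive group, 199.8, 470.2 and 681 in the Active group, and 191, 288 and 507 in the Activity Reduction group. The log2 fold change of Cebpa was 0.54 (SE 0.28) in the Active against the Inactive group, the largest of the 10 genes in that comparison, and -0.49 (SE 0.28) in the Activity Reduction against the Active group. The adjusted p-values were 0.484 and 0.454 (edgeR's quasi-likelihood test, Benjamini-Hochberg adjusted). Cebpa moved with the liver transcripts, with a median of 520.2 (range 356 to 681) in the 8 libraries that held more of them and 281 (range 176 to 408) in the other 13. As stated above, that division cannot be told apart from the order of mouse numbers. With that division as a covariate the log2 fold changes were 0.024 and -0.097, and within the 13 libraries, 2 of them Active, they were 0.22 and -0.21. The medians of Adipoq in the 8 and the 13 libraries were 231 and 248, and those of Plin1 192 and 199.

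**Figure D2:**
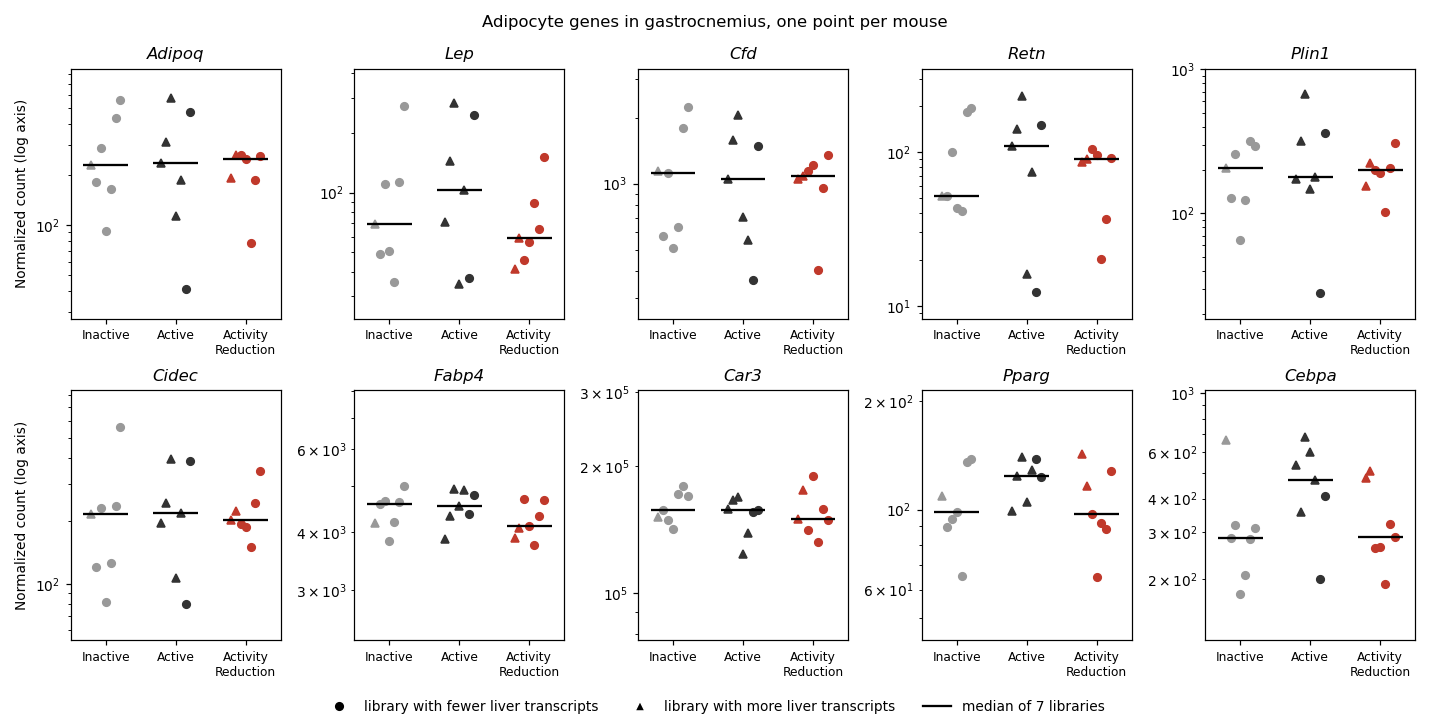
Normalized count (y axis, log scale) of each of the 10 genes in the Inactive, Active and Activity Reduction groups, with 1 point per library, a line at the median of 7 libraries and triangles for libraries with more liver transcripts. The groups overlap in every panel, and for Cebpa the triangles lie mostly above the circles.

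When the 10 genes were compared between groups, 0 of 10 passed the thresholds (adjusted p under 0.05 and a log2 fold change over 0.25 in either direction) in each of the 3 comparisons with edgeR. Over all genes tested, the same edgeR thresholds called 0%, 0.0124% and 0% in the Active against the Inactive group, the Activity Reduction against the Inactive group and the Activity Reduction against the Active group. DESeq2 called 57, 23 and 117 of all genes, which is 0.424%, 0.252% and 0.869% of the genes to which it gave an adjusted p, and 0 of the 10 genes. For Activity Reduction against Inactive it gave no adjusted p to 5 of the 10, namely Lep, Retn, Plin1, Cidec and Pparg. At an unadjusted p under 0.05, 0 of the 10 genes passed in any comparison, beside 10.9%, 7.73% and 13.3% of all genes. These shares divide into 6.18% higher and 4.69% lower, 4.19% higher and 3.54% lower, and 6.89% higher and 6.44% lower. The groups overlapped for all 10 genes in every comparison, whereas 0.223%, 0.112% and 0.285% of all genes had groups that did not overlap. Against the Inactive group, 7 of the 10 log2 fold changes of the Active group were above 0 with a median of 0.11, and 2 of 10 were above 0 in the Activity Reduction group with a median of -0.05. For Activity Reduction against Active, 1 of 10 was above 0, with a median of -0.31. The medians of all genes tested were 0.0052, 0.0057 and -0.00065. The comparisons share their groups, and the 10 genes share much of their variation, so these counts of direction are not independent of each other. The smallest adjusted p of the 10 genes was 0.484, 0.862 and 0.451 in the same order, and the exact permutation p-values of single genes ran from 0.104 to 0.999.

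**Figure D3:**
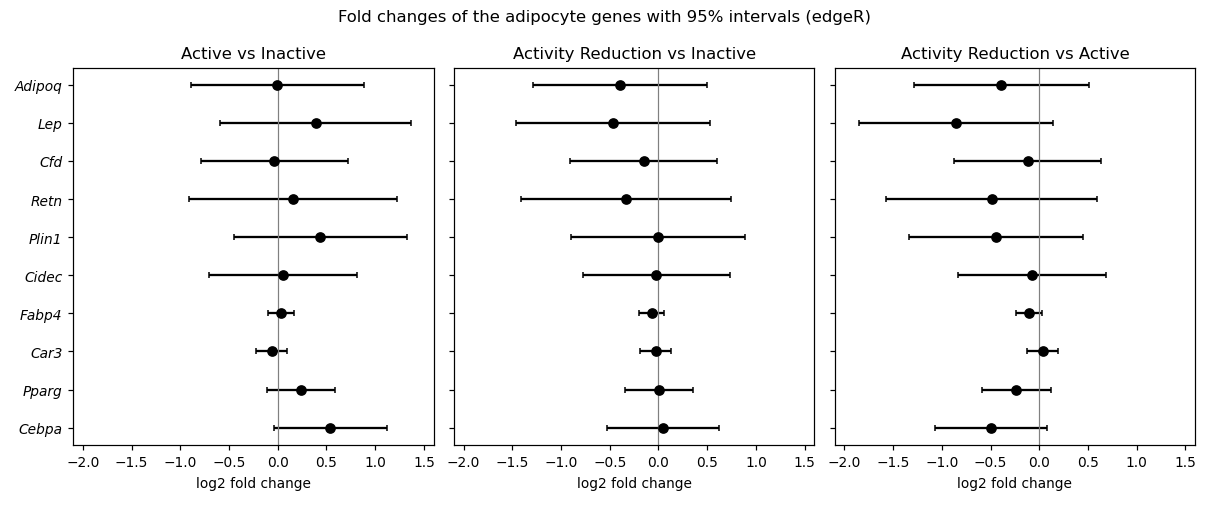
Log2 fold change (x axis) of each of the 10 genes (y axis) in the 3 comparisons, with the 95% interval of edgeR's fit as a bar. Every interval includes 0, and those of Fabp4 and Car3 are the narrowest.

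The libraries differed much more than the groups. The SD over the 21 libraries on the log2(CPM + 1) scale was 0.71 for Adipoq, 0.70 for Cfd, 0.69 for Plin1, 0.63 for Lep, 0.62 for Retn and 0.57 for Cidec, and for each of these 6 genes it exceeded the SD of at least 97.9% of the genes tested. Cebpa followed with 0.52, while Pparg had 0.22, Car3 0.15 and Fabp4 0.13, beside a median of 0.14 over all genes. Adding 1 CPM narrows the spread of genes at low levels, so the order of these SDs depends in part on level. The highest library was 18.9 times the lowest for Retn and 6.16 times for Cfd. The 6 variable genes summed to between 11.3 CPM in Active 6 and 84.9 CPM in Active 3. Inactive 7 held 83.3 CPM, Active 7 62.5 CPM and Inactive 6 61.8 CPM. The 6 genes are Adipoq and those that followed it most closely over these same libraries (below), so that they rank libraries alike is in part built in. Active 3 was among the 3 highest libraries for 6 of the 6 genes and Inactive 7 for 5 of them, whereas Active 6 was among the 3 lowest for 6 of 6. Activity Reduction 5 and Inactive 4 were among the 3 lowest for 4 of the 6, with sums of 17.0 and 16.9 CPM. The group medians of the sum nearly coincided, at 38.8 CPM in the Inactive, 37.1 CPM in the Active and 39.2 CPM in the Activity Reduction group. Cfd weighs most in this sum, with a mean over libraries of 22.1 CPM, and Adipoq was next with 5.16 CPM. The group medians of Retn and Lep alone, given above, lay farther apart than those of the sum. The Activity Reduction libraries lay closer together, from 17.0 to 50.4 CPM, than the Inactive libraries, from 16.9 to 83.3 CPM, and the Active libraries, from 11.3 to 84.9 CPM, and this difference in spread was not tested.

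**Figure D4:**
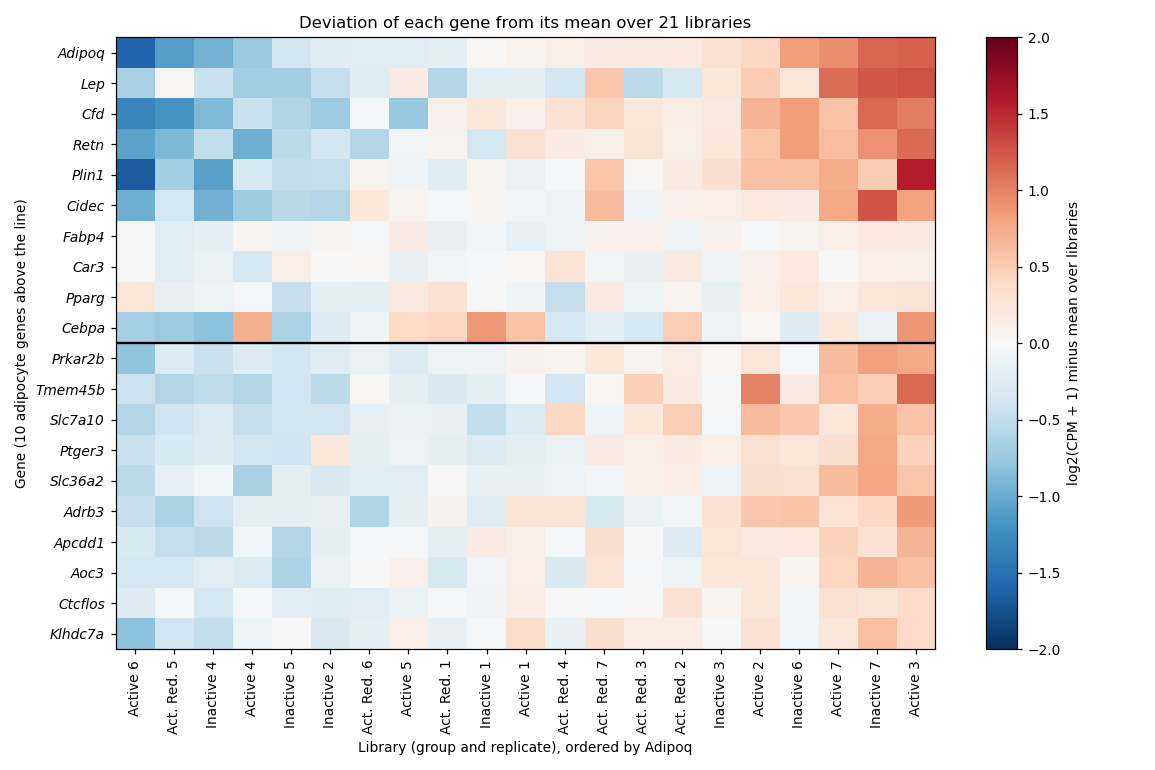
Deviation of log2(CPM + 1) from the mean over 21 libraries (colour, red above and blue below) for the 10 genes and, below the line, for the 10 other genes most like Adipoq (rows), with libraries ordered from the lowest to the highest Adipoq (columns). Active 6 is at the low end and Active 3 at the high end, the groups are mixed along the order, and Fabp4, Car3 and Pparg are pale throughout.

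Each of the other 9 genes was compared with Adipoq over the 21 libraries on the log2(CPM + 1) scale, with permutation tests adjusted over these 9 relations. Retn, Cfd, Plin1 and Cidec followed Adipoq most closely, with Pearson's r of 0.94, 0.94, 0.93 and 0.88 and Spearman's rho of 0.95, 0.93, 0.93 and 0.84. All 4 had an adjusted permutation p of 2.25e-05 by either measure, and their unadjusted p of 1e-05 is the smallest that the 100000 permutations can give. Lep followed with r = 0.76 (adjusted permutation p = 0.000126) and rho = 0.74 (adjusted p = 0.00027). Fabp4 had r = 0.56 (adjusted permutation p = 0.0118) and rho = 0.56 (adjusted p = 0.0139), and Car3 had r = 0.53 (adjusted permutation p = 0.0175) and rho = 0.49 (adjusted p = 0.0319). Cebpa had r = 0.42 (adjusted permutation p = 0.0684) and rho = 0.39 (adjusted p = 0.0895), and Pparg had r = 0.30 (adjusted permutation p = 0.191) and rho = 0.37 (adjusted p = 0.0987). The secreted and droplet genes thus varied together over the libraries, and the genes for the factors that drive the fat cell programme did not pass the test.

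Leaving out Active 6 and Activity Reduction 5, the 2 libraries farthest from the median of Adipoq, gave r of 0.92 for Retn, 0.91 for Cfd, 0.89 for Plin1, 0.88 for Cidec and 0.85 for Lep (n = 19). For Fabp4 it gave 0.58, for Car3 0.55, for Pparg 0.50 and for Cebpa 0.21. Pparg then passed (adjusted permutation p = 0.0352), and the rho of Car3, 0.44, no longer did (adjusted permutation p = 0.0698). Adipoq spanned 2.78 on the log2 scale with no gap over 0.49, so the libraries did not fall into separate clusters. Within the 13 libraries with fewer liver transcripts, r with Adipoq was 0.96 for Cfd, 0.96 for Retn, 0.94 for Plin1, 0.86 for Cidec, 0.81 for Cebpa, 0.74 for Fabp4, 0.73 for Lep, 0.45 for Car3 and 0.25 for Pparg. Within the 8 libraries with more of them it was 0.86 for Cfd, 0.93 for Retn, 0.94 for Plin1, 0.95 for Cidec, 0.11 for Cebpa, 0.25 for Fabp4, 0.89 for Lep, 0.80 for Car3 and 0.43 for Pparg. For Cebpa, r of the deviations from the means of this division was 0.61 (adjusted permutation p = 0.00497), against 0.42 over all libraries.

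Within groups of 7, r with Adipoq lay between 0.84 and 0.97 for Cfd, Retn and Plin1 in every group. For Lep, r was 0.93 among Active, 0.88 among Inactive and -0.14 among Activity Reduction libraries (permutation p = 0.00312, 0.00644 and 0.748, rho = 0.93, 0.89 and -0.21, n = 7 each). In the Activity Reduction group, Activity Reduction 5 held the lowest Adipoq, 77.9, with the second-highest Lep of that group, 88.9, and the difference in correlation between groups was not tested. Cidec had r = 0.98 in the Active, 0.93 in the Inactive and 0.57 in the Activity Reduction group. In all, 45 such correlations within groups or within the liver division were computed beside the 9 over all libraries.

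**Figure D5:**
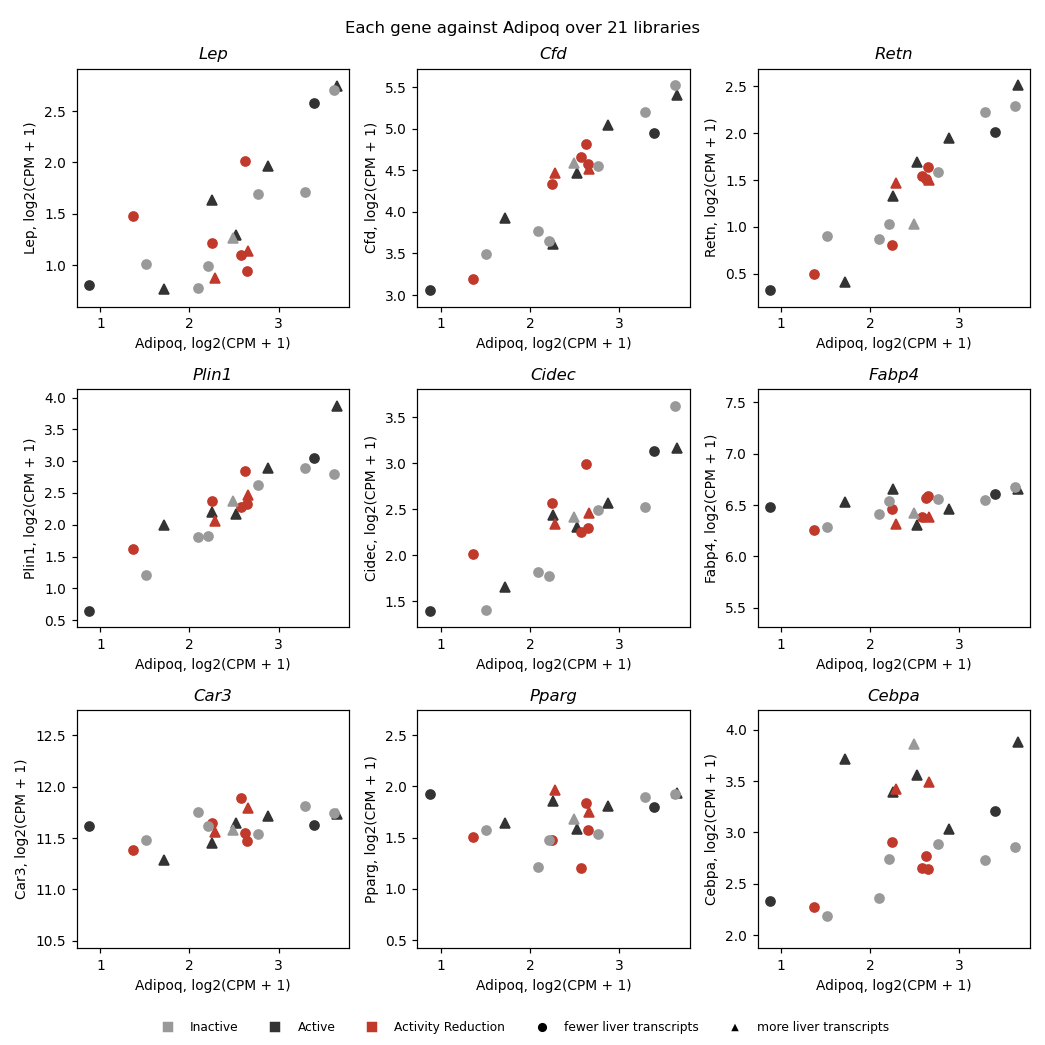
Level of each of the other 9 genes (y axis) against Adipoq (x axis), both as log2(CPM + 1), with 1 point per library, groups in different shades and triangles for libraries with more liver transcripts. Lep, Cfd, Retn, Plin1 and Cidec climb with Adipoq, Fabp4 and Car3 are almost level, and the triangles of Cebpa lie apart from the circles.

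Among the 16128 other genes tested, ranked by Spearman's rho with Adipoq over the 21 libraries, Retn, Cfd and Plin1 took ranks 1, 2 and 3 and Cidec rank 11. Lep had rank 24, Fabp4 132, Car3 275, Cebpa 719 and Pparg 908. The 10 genes outside the list with the highest rho were Prkar2b (0.92), Tmem45b (0.91), Slc7a10 (0.88), Ptger3 (0.88), Slc36a2 (0.86), Adrb3 (0.85), Apcdd1 (0.84), Aoc3 (0.81), Ctcflos (0.80) and Klhdc7a (0.79). Several of these are known from fat cells: Adrb3 encodes the adrenergic receptor through which catecholamines drive lipolysis, Slc7a10 an amino acid transporter used as a surface marker of white fat cells, Prkar2b a regulatory subunit of protein kinase A, and Aoc3 an amine oxidase of the cell surface. In all, 23 genes outside the list had a rho over 0.7 and 5 a rho under -0.7. These are descriptions over libraries that share their preparation. The 10 nearest genes did not pass the thresholds between groups, which at most 0.0124% of all genes passed in any comparison.

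Of 25 other genes of white fat cells, 0 passed the thresholds in any comparison, beside at most 0.0124% of all genes. At an unadjusted p under 0.05, 2 were higher in the Active than in the Inactive group, 2 were higher and 3 lower in the Activity Reduction than in the Inactive group, and 2 were lower in the Activity Reduction than in the Active group. The shares of all genes were 6.18% higher, then 4.19% higher and 3.54% lower, then 6.44% lower. The median log2 fold changes of the 25 genes were 0.03, -0.02 and -0.15. Scd1, which encodes a desaturase that makes monounsaturated fatty acids, averaged 3957 ± 1974 normalized counts in the Inactive, 8130.5 ± 5009.6 in the Active and 3715 ± 1453 in the Activity Reduction group (SD, n = 7 each). Its log2 fold change was 1.04 (SE 0.42) in the Active against the Inactive group and -1.13 (SE 0.42) in the Activity Reduction against the Active group (adjusted p = 0.385 and 0.249, edgeR's quasi-likelihood test, Benjamini-Hochberg adjusted), and its rho with Adipoq was 0.76. Agpat2, an acyltransferase of triglyceride synthesis, had log2 fold changes of 0.36 and -0.49 in the same comparisons, and Lpl, the lipase of the vessel wall, had -0.26 for Activity Reduction against Inactive (adjusted p = 0.552 by the same edgeR test). Of the 25 genes, 4 had a rho with Adipoq over 0.7, which were Slc7a10, Adrb3, Lgals12 (0.79) and Scd1. The lowest rho of the 25 was that of Cd36, -0.47. Other cells of the belly can also hold transcripts of this list, and Pnpla2 is counted again among the fibre genes below. The cells of origin were not measured, so the medians and rho of the list do not describe fat cells alone.

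Of 10 genes of brown fat cells 8 were tested, and 0 passed the thresholds, with 1 higher, 1 higher and 3 lower at an unadjusted p under 0.05 in Active against Inactive, Activity Reduction against Inactive and Activity Reduction against Active. Of all genes, at most 0.0124% passed the thresholds, and 6.18% were higher, 4.19% higher and 6.44% lower at that p in the same order. Ucp1, the defining uncoupling protein of brown fat, had at most 2 raw counts in any library, and Elovl3 at most 4, where whether a pair of reads counts once is not given in the sources used here. Cidea, Zic1 and Dio2 had the smallest unadjusted p-values of this list, each in a different comparison. The log2 fold change was -0.69 for Cidea in Activity Reduction against Active, 1.14 for Zic1 in Activity Reduction against Inactive and 0.60 for Dio2 in Active against Inactive (adjusted p = 0.332, 0.575 and 0.426 by edgeR's quasi-likelihood test). The highest rho with Adipoq in the list was 0.24. Lipid droplets also occur within muscle fibres, and of 8 genes of that system 0 passed the thresholds and 0 had an unadjusted p under 0.05. Of all genes, 10.9%, 7.73% and 13.3% had such an unadjusted p in the 3 comparisons. Pnpla2, Abhd5 and Dgat1, which encode a triglyceride lipase, its activator and an enzyme of triglyceride synthesis, had log2 fold changes of 0.22 in Activity Reduction against Active, 0.046 in Activity Reduction against Inactive and 0.12 in Active against Inactive, the comparison in which each had its smallest p. Plin5, the perilipin of oxidative muscle, had a rho of -0.62 with Adipoq, opposite in sign to Plin1.

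The receptors of the secreted products were measured on the same libraries, and of 7 genes 0 passed the thresholds, with 1 higher and 2 lower at an unadjusted p under 0.05 in the Activity Reduction against the Active group and 1 higher in each other comparison. Of all genes, at most 0.0124% passed the thresholds. At that unadjusted p, 6.89% were higher and 6.44% lower in Activity Reduction against Active. Against the Inactive group, 6.18% were higher in Active and 4.19% higher in Activity Reduction. Adipor1, a receptor of adiponectin, averaged 14189 ± 603, 13725 ± 405 and 14989 ± 648 normalized counts in the Inactive, Active and Activity Reduction groups (SD, n = 7 each). The log2 fold change in the Activity Reduction against the Active group was 0.12 (SE 0.033, adjusted p = 0.126 by edgeR's quasi-likelihood test). Lepr, the leptin receptor, had a log2 fold change of -0.43 (SE 0.16, adjusted p = 0.258 by the same edgeR test) and Cap1, reported as a receptor of resistin, -0.23 (SE 0.057, adjusted p = 0.115 by the same edgeR test). Cdh13, which binds adiponectin on endothelium and muscle, had the highest rho with Adipoq of the 7 genes, 0.65.

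Of 14 regulators of fat cell formation and partners of PPARG and C/EBPα, 0 passed the thresholds, and 1 was lower at an unadjusted p under 0.05 in each comparison. Of all genes, at most 0.0124% passed the thresholds. At that p, 4.69% were lower in Active against Inactive, 3.54% in Activity Reduction against Inactive and 6.44% in Activity Reduction against Active. Zfp423, a factor of committed preadipocytes, Nr1h3, the liver X receptor alpha, and Wnt10b, a secreted inhibitor of fat cell formation, had the smallest unadjusted p-values of this list with log2 fold changes of 0.21 in Activity Reduction against Inactive, -0.20 in Active against Inactive and -1.19 in Activity Reduction against Active. The level of Wnt10b was low, with at most 40 raw counts in a library, and its adjusted p was 0.129 (edgeR's quasi-likelihood test). Fibro-adipogenic progenitors are the cells from which fat cells in muscle arise. All 11 of their genes had log2 fold changes above 0 in the Active against the Inactive group (median 0.23) and below 0 in the Activity Reduction against the Active group (median -0.37), with 0 passing the thresholds in either and 4 and 9 at an unadjusted p under 0.05. Of all genes, 6.18% were higher at that p in the former and 6.44% lower in the latter. Both comparisons hold the same Active libraries, so they are not independent results. Of these libraries, 5 were among those with more liver transcripts, and the part of that division in these values was not tested. Cd34, Dpp4 and Cd248 had log2 fold changes of 0.31, 0.59 and 0.53 in Active against Inactive and -0.33, -0.68 and -0.53 in Activity Reduction against Active. The progenitor genes did not follow Adipoq over libraries, as the rho of the 11 genes ran from -0.25 to 0.25.

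Markers of other cells that the dissected belly could hold gave 0 genes past the thresholds in every list and comparison. At most 0.0124% of all genes passed in any comparison, so a count of 0 in a short list says little about these cells. In the Activity Reduction against the Active group the median log2 fold change was -0.05 for 11 endothelial genes, -0.34 for 9 macrophage genes, -0.10 for 8 Schwann cell and nerve genes, -0.0011 for 5 blood genes and -0.88 for 5 tendon and cartilage genes. In the Active against the Inactive group the medians were 0.06, 0.30, 0.23, 0.27 and 0.35. Slow fibre genes had a median of -0.20 for Active and -0.62 for Activity Reduction against Inactive, and fast fibre genes had 0.02 and 0.05. At an unadjusted p under 0.05, 3 endothelial, 3 macrophage, 3 liver, 1 blood and 1 fast fibre gene were higher in the Active than in the Inactive group. Between the Activity Reduction and Active groups, 3 endothelial, 3 macrophage and 1 slow fibre gene were lower and 1 tendon and 1 fast fibre gene higher in the former. For Activity Reduction against Inactive, 5 slow fibre genes were lower, and 2 blood genes, 1 nerve gene, 1 tendon gene and 1 fast fibre gene were higher. Of all genes, 6.18% were higher at that p in Active against Inactive. For Activity Reduction against Active, 6.44% were lower and 6.89% higher, and against Inactive 3.54% were lower and 4.19% higher. The smallest unadjusted p-values belonged to Pecam1, Cdh5 and Kdr in the endothelial list, Csf1r, Mrc1 and Cd163 in the macrophage list, Myh7, Tpm3 and Atp2a2 in the slow fibre list, Myh4, Mylpf and Actn3 in the fast fibre list, Serpina3k, Hpx and Mup3 in the liver list, Pmp22, Prx and Sox10 in the nerve list, Hba-a1, Hbb-bt and Alas2 in the blood list, and Tnmd, Scx and Comp in the tendon list. Of 8 lymph node genes 2 were tested, Cd3e and Ighm, of which Ighm had a rho with Adipoq of 0.59 and lay between 189.6 and 1444 normalized counts. Of 7 skin keratinocyte genes 2 were tested, Krt10 and Dsp, with a rho of 0.16 and 0.27. The part of these cells in the values of the 10 fat cell genes was not tested.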

How the data were processed

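RNA of 21 gastrocnemius samples, 7 per group, was sequenced after poly(A) selection. The authors used fastp for trimming, STAR for alignment to GRCm39, featureCounts for counting and DESeq2 for normalization, and versions, gene annotation and strand setting are not given in the sources used here. The deposited values are raw counts per gene, without normalization, and a further table, named for normalized counts, held 857913 of 857913 values equal to them. Counts were normalized here with DESeq2 size factors, and CPM with TMM library sizes. Groups came from the labels.

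Differential expression was tested with edgeR 4.0.16 (quasi-likelihood test, TMM, filterByExpr, 3 groups in 1 fit, Benjamini-Hochberg adjustment over 16129 genes), with an adjusted p under 0.05 and a log2 fold change over 0.25 as thresholds. DESeq2 1.42.0, other size factors, no filter, the liver division as covariate, a replicate block, robust dispersions and leaving out libraries were alternatives, and the restriction to 13 libraries was chosen after seeing the data. The script was tested on simulated data. Correlations used log2(CPM + 1) and 100000 permutations (scipy 1.17.1). The 10 genes and the marker lists (other white and brown fat, fibre lipid droplets, receptors, regulators, progenitors, endothelium, macrophages, slow and fast fibres, liver, nerve, lymph node, skin, blood, tendon) were chosen with earlier results of these data known. Named are the 10 genes, up to 3 genes with the smallest unadjusted p of each list, and the 10 genes with the highest rho with Adipoq, and others were named after their values were seen. Transcript lengths and positions came from GENCODE M39.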

Additional observations from a re-analysis of the deposited data

Results flagged for a closer look

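In 30 sets of 7 libraries (10 genes in 3 groups), 5 held a library whose gap to its nearest neighbour was a larger share of the whole range than the critical value of Dixon's test for 7 samples at the 95% level. Chance flags about 1 in 20 sets, and the 10 genes are not independent of each other.

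Activity Reduction 5 held the lowest level of its group for Adipoq, 77.9 normalized counts with the next library at 185, and for Cfd, 403 with the next library at 953. Its Lep was not low, at 88.9. Inactive 7 held the highest level of its group for Lep, 274 with the next library at 113, and for Cidec, 562 with the next library at 236.

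Inactive 1 held the highest Cebpa of the Inactive group, 667 with the next library at 318.4. It is the only Inactive library with more liver transcripts, against 5 Active ones, and Cebpa moved with that division, as given above. Without Inactive 1, the log2 fold change of Cebpa in the Active against the Inactive group was 0.83, against 0.54 with it, with an adjusted p of 0.0785 (edgeR's quasi-likelihood test). All Inactive libraries in that fit had fewer liver transcripts, so the rise cannot be told apart from the division.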

How the results depend on the processing

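The count of the 10 genes past the thresholds was 0 in all 27 results of the alternatives, where each comparison under each setting is 1 result. It was also 0 in all 42 results of the fits that left out a library, each read in the comparisons that hold its group. The smallest adjusted p among these was 0.0785 (edgeR's quasi-likelihood test, Cebpa, Active against Inactive, without Inactive 1). Inactive 1 is the only Inactive library with more liver transcripts, with which Cebpa moved. Some fold changes changed sign. For the Activity Reduction against the Inactive group, Pparg gave -2.0e-05 with DESeq2 and -0.0016 with edgeR on the groups compared, -0.0034 without the filter, -0.023 with the liver covariate and -0.14 in the 13 libraries, and Cebpa gave -0.073 with the covariate. Also in the 13 libraries, the signs of Retn (-0.32, from 0.16) and Plin1 (-0.021, from 0.44) in the Active against the Inactive group, of Plin1 (0.019) in the Activity Reduction against the Inactive group, and of Cfd (0.12), Plin1 (0.040, from -0.44) and Car3 (-0.032) in the Activity Reduction against the Active group were turned. The 13 libraries hold 2 Active ones, so comparisons with the Active group there rest on 2 libraries. The cause of these changes of sign was not tested.

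With the replicate number as a block, Plin1 (0.044) and Cidec (0.17) in the Activity Reduction against the Inactive group and Cidec (0.022) in the Activity Reduction against the Active group changed sign, 0 of the 10 genes passed, and 4 of all genes passed in the Activity Reduction against the Inactive group against 2 without it. Same-numbered libraries correlated between -0.22 and 0.62, so the numbers were not taken to pair mice.

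Leaving out 1 library at a time, the log2 fold change in the Active against the Inactive group ran from -0.29 to 0.26 for Adipoq, -0.25 to 0.22 for Cfd, -0.13 to 0.47 for Cidec and -0.17 to 0.43 for Retn. In the Activity Reduction against the Inactive group it ran from -0.091 to 0.34 for Cebpa, -0.29 to 0.092 for Cfd, -0.17 to 0.39 for Cidec, -0.76 to 0.020 for Lep, -0.17 to 0.14 for Plin1, -0.094 to 0.087 for Pparg and -0.084 to 0.0083 for Car3. In the Activity Reduction against the Active group it ran from -0.27 to 0.10 for Cfd, -0.22 to 0.10 for Cidec and -0.019 to 0.072 for Car3.

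The count over all genes was 57, 23 and 117 (Active against Inactive, Activity Reduction against Inactive, Activity Reduction against Active) with DESeq2 on 3 groups and 75, 44 and 132 on 2 groups. It was 3 with edgeR on 2 groups in the Active against the Inactive group, where the main count was 0. In the Activity Reduction against the Inactive group, where the main count was 2, it was 0 with edgeR on 2 groups, 0 with other size factors, 1 with the liver covariate and 0 in the 13 libraries. With other size factors it was 1 in the Activity Reduction against the Active group. Leaving out libraries gave 0 to 1, 0 to 4 and 0 to 9, the 9 without Activity Reduction 7 and 8 without Active 3. Of the correlations, that of Cebpa passed by Pearson's r with size factors (r = 0.45) and as deviations from group means (r = 0.47). By Spearman's rho it did not pass in these settings (rho = 0.39 and 0.32, adjusted permutation p = 0.0895 and 0.153).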

Other observations

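Small counts in the deposited table were more often even than odd. Over all genes and libraries the value 1 occurred 14744 times, 2 occurred 33879 times, 3 occurred 7438 times and 4 occurred 17983 times. The count of Cebpa was even in 20 of 21 libraries, that of Lep in 19 and that of Adipoq in 16, while that of Plin1 was even in 11 and that of Car3 in 12. Whether both reads of a pair were counted is not given in the sources used here, so a raw count is not known to equal a number of fragments, and the precision that small counts give is uncertain to that extent.

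The fat cell genes with the lowest counts were Retn, with 12 raw counts in its lowest library, Plin1 with 27, Lep with 30 and Adipoq with 40. These 4 lowest counts limit the precision of single libraries, and Active 6 held 3 of the 4.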
